A study of Homo sapiens with 6 samples.

Results

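DNA replication machinery genes encode the proteins that mark origins, unwind DNA, copy it and supply its building blocks. The 52 genes were taken by name, and each was read from the probe set, among those with this gene as their single symbol, that was brightest on average across the 6 arrays. Of these, 51 were measured, out of 11963 genes with such a probe set, and UHRF1 had none. The list and its grouping by role did not use the measured values to select genes, although earlier results of these data were known when it was written. All samples carry the label HSC2, an established line from a human oral squamous cell carcinoma, kept in DMEM with fetal bovine serum and penicillin/streptomycin. For 3 arrays the cells are given as a stable transfectant of full-length, wild-type MALT1 cDNA, which encodes a paracaspase of NF-kappaB signalling. For the other 3 they are given as transfected with the vector alone, called mock. The promoter driving the MALT1 cDNA and the number of clones per group were not given in the sources used here. The comparison asks which transcripts differ between the arrays labelled MALT1 and those labelled mock. No label states that the 3 arrays of a group came from separate cultures, so a p-value here reflects only the spread among these arrays, possibly technical.

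Before S phase, the origin recognition complex, CDC6 and CDT1 load the MCM2-7 helicase ring onto DNA. The kinase pair CDC7 and DBF4, together with cyclin-dependent kinases, then lets CDC45 and the GINS complex join the ring, and primase, the replicative polymerases, the PCNA clamp and its loader follow at the fork. Many of these genes are transcribed together at the G1 to S transition under E2F transcription factors, and in carcinoma cells their transcripts are commonly used as a sign of proliferation.

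The MALT1 transcript went against the labels. Its probe set with the largest difference read 128, 124 and 107 on the MALT1-labelled arrays, replicates 1 to 3 in that order throughout, and 282, 242 and 236 on the mock-labelled arrays (log2 difference −1.08 ± 0.12 SE, adjusted p = 0.0022). The second read 175, 194 and 178 against 248, 253 and 257 (adjusted p = 0.0104), and the other 195, 180.1 and 164 against 227, 217 and 208 (adjusted p = 0.0969). On each of them every MALT1-labelled array was below every mock-labelled array, so the groups are named by label. Whether these probe sets lie within the transfected cDNA was not analysed here, and the cause of their lower signal was not tested. The median signal of an array was 69.3, 70.6 and 79.0 on the MALT1-labelled and 68.2, 67.3 and 64.1 on the mock-labelled arrays, so MALT1 replicate 3 stood apart. Of 10 measured squamous epithelium markers, 9 were lower on the MALT1-labelled arrays, with a summed signal of 25351 to 28248 against 59676 to 68778. The squamous regulator TP63 had no single-symbol probe set. All 13 luminal breast epithelium markers were higher, with summed signals of 79696 to 88399 against 9049 to 9744. KRT19, TFF1, SPDEF and FOXA1 did not exceed 17.6, the highest value of any trp control (a bacterial transcript) on any array, on all mock-labelled arrays. Summed fibroblast markers reached at most 244 and summed leukocyte markers at most 76.4 on any array, and the leukocyte gene PTPRC did not exceed 17.6 on any array. KRT19, for example, averaged 12414 on the MALT1-labelled and 1.25 on the mock-labelled arrays. The marker difference thus coincides with the group label on all 6 arrays. In the results that follow, differences that go with MALT1 and differences that go with unlike cells cannot be told apart. The part of the squamous and luminal markers in those results was not tested. In bulk RNA, fewer cells of a type and less RNA per cell cannot be told apart.

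The replication genes split almost evenly by direction, and their median absolute difference was smaller than that of all genes. Of the 51 measured, 11 were higher and 12 lower on the MALT1-labelled arrays (limma, Benjamini-Hochberg adjusted p under 0.05 over all 22215 probe sets), and 28 did not pass. The 23 called genes are 45.1% of those measured, beside 40.4% of all 11963 genes, of which 21.1% were higher and 19.2% lower, so the share is near that background. Among the 6785 genes above the median signal 56.8% passed (27.7% higher and 29.1% lower), and the list's share lies below that. Over all probe sets, 35.6% passed, 18.6% as higher and 17.0% as lower. Only LIG1 and RRM1 passed with a change of at least 2-fold, 3.92% of the list, where 20.5% of all genes did. The median absolute log2 difference was 0.29 over the replication genes, 0.54 over all genes and 0.49 over the genes above the median signal. The signed median was −0.11 over the list and 0.082 over all genes. Centring each array on its median log2 value lowered the median over all probe sets from 0.08 to −0.049 and the list's median to −0.24. Without mock replicate 1 the list's median was −0.023, and without mock replicate 3 it was −0.069. Without MALT1 replicate 3, the array with the highest median signal, the median was −0.0019 over all probe sets and −0.092 over the list. The groups did not overlap in 38 of the 51 genes (74.5%), beside 54.6% of all genes and 74.7% of genes above the median signal. No replication gene was dim: the lowest signal of any of them on any array was 124.

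**Figure D1:**
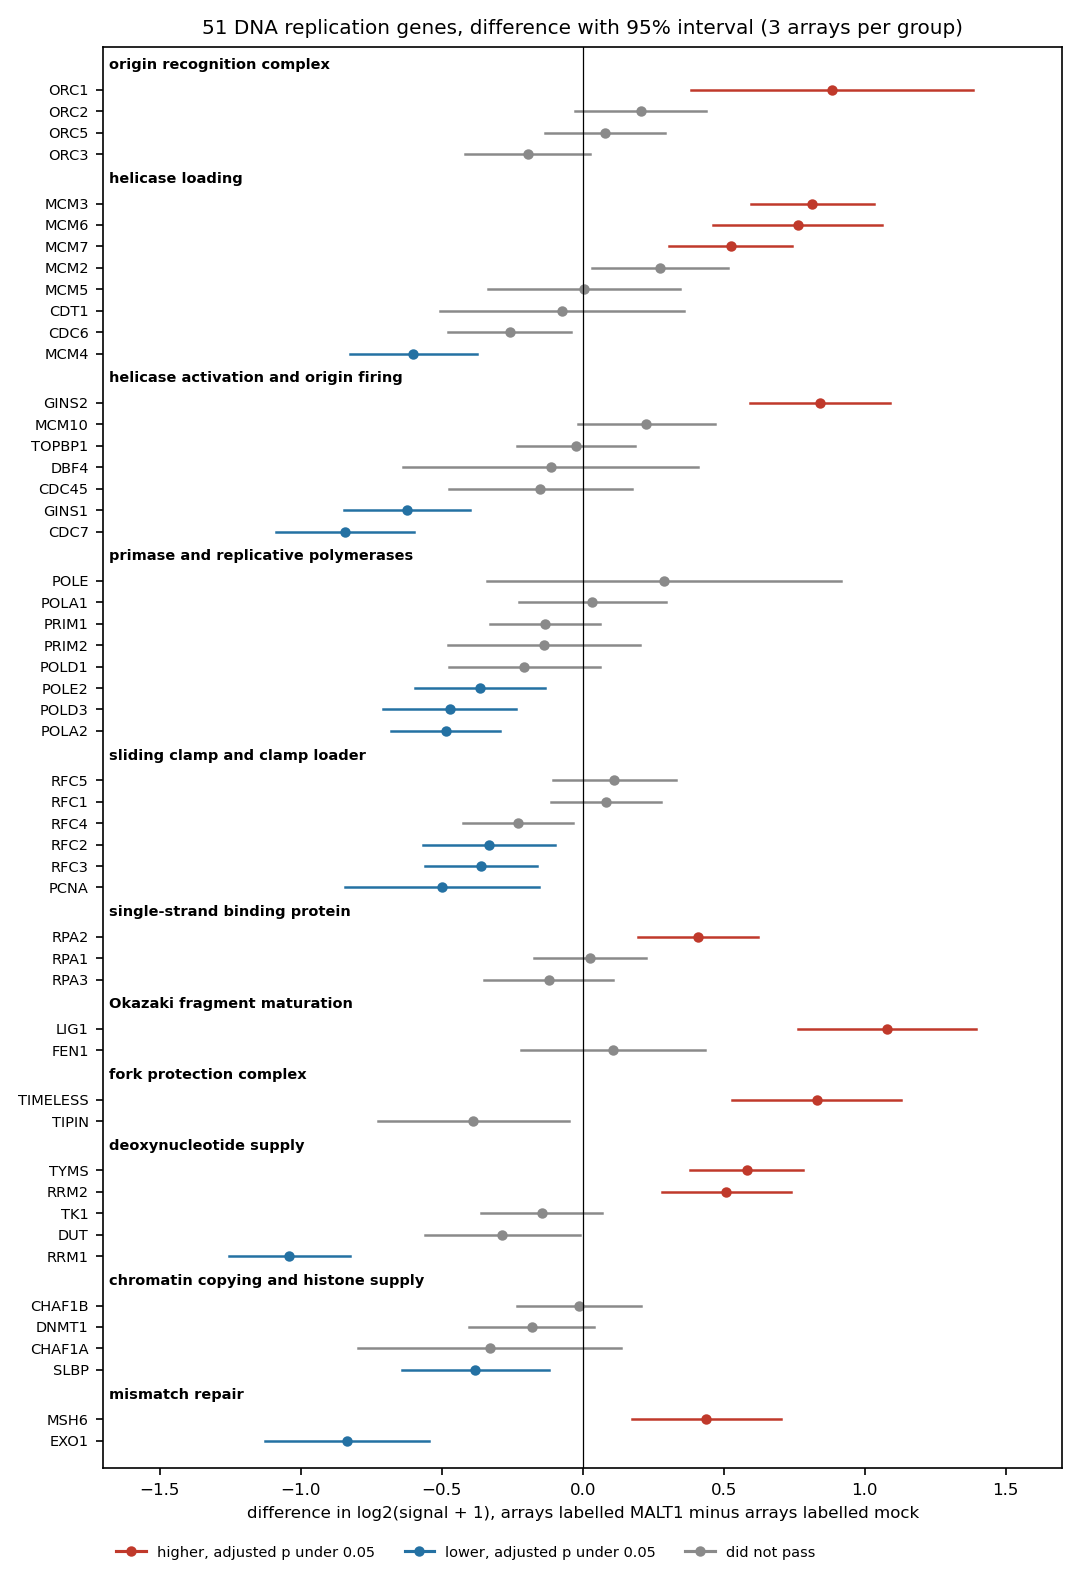
Difference in log2(signal + 1), MALT1-labelled minus mock-labelled arrays, for the 51 measured replication genes grouped by role, with 95% intervals from limma (3 arrays per group). Red points passed as higher (11 genes), blue as lower (12 genes) and grey did not pass (28 genes), and only LIG1 and RRM1 lie beyond 1 on the axis.

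Many of the replication genes share a promoter feature that did not enter their choice. Promoter windows of 300 bases, from 250 before to 50 after an annotated start, were taken from RefSeq (GRCh38.p14) and matched 47 of the 52 genes by symbol. They were searched on both strands for the E2F consensus written as TTTGGCGC, TTTGCCGC, TTTCGCGC or TTTCCCGC. Matches may overlap each other, since several of these words and their reverse complements share letters. At least 1 match was found for 25 of the 47 genes (53.2%) and in 38.8% of their 67 windows. Over all windows of the table the share was 3.31%, and over all its 27305 genes 3.99%. Over the 9563 genes measured on the array it was 6.08% of genes and 4.38% of windows. Among other replication genes, listed further on, 21 of 81 (25.9%) had a match. The mitotic genes described further on had a match in 3 of 20. By direction, the letters were found for 7 of 10 higher genes, 7 of 10 lower genes and 10 of 26 genes that did not pass, so the higher and lower genes had the same count. Of the 35 matches, 28 began within 100 bases of the annotated start. A match describes the letters only, and its absence says that these letters are not in this window. The CCAAT box (letters CCAAT, either strand, letters that none of the E2F words contains) was found for 26 of 47 replication genes, 17 of 20 mitotic genes and 39.7% of all genes. It was found for 44.2% of the genes measured on the array and for 43 of 81 other replication genes. Unlike the E2F letters, it was found for 8 of 10 higher genes but 3 of 10 lower genes, and for 14 of 26 that did not pass. This difference by direction was not tested.

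The promoters of the 4 genes with the largest passing difference in each direction are printed here, because genes that moved in opposite directions can be set beside each other. Each runs 5′ to 3′ on the gene's strand, from 250 bases before the start to 20 after it, with E2F matches in capitals. CDC7 and EXO1 each have 2 annotated starts in the table, 1 with a match in its window and 1 without, and the window with a match is shown. The first 4 genes were higher on the MALT1-labelled arrays.
LIG1, chr19:48170325-48170594, minus strand: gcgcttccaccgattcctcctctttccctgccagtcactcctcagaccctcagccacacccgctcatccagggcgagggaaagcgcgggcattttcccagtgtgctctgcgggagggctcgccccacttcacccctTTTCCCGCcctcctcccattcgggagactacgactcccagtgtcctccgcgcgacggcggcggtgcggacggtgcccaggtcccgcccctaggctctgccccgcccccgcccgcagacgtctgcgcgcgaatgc
ORC1, chr1:52404404-52404673, minus strand: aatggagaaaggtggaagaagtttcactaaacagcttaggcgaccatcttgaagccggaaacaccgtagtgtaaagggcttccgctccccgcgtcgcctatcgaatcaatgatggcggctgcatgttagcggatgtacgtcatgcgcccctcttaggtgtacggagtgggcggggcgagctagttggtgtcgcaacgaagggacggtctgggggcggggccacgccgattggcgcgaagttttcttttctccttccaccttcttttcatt
GINS2, chr16:85688935-85689204, minus strand: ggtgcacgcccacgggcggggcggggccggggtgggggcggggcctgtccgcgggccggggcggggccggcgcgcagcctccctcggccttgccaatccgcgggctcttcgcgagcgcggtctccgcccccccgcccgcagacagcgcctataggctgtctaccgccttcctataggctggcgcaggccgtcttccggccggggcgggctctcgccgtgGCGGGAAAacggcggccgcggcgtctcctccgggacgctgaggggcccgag
TIMELESS, chr12:56449407-56449676, minus strand: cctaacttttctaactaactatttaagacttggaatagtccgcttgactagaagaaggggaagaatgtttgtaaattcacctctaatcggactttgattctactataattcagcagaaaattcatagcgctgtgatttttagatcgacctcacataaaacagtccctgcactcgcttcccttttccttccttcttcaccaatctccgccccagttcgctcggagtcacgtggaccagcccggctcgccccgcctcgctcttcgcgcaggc
The next 4 genes were lower on the MALT1-labelled arrays.
RRM1, chr11:4094435-4094704, plus strand: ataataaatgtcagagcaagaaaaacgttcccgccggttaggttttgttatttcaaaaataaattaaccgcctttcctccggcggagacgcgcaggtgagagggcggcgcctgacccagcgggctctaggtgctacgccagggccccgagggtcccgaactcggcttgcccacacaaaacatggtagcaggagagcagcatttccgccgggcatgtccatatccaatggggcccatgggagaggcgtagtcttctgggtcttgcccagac
CDC7, chr1:91500862-91501131, plus strand: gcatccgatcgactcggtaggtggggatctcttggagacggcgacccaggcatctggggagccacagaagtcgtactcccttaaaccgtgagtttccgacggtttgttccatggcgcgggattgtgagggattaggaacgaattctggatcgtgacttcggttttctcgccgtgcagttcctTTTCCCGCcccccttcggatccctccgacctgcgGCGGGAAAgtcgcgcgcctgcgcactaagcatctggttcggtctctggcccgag
EXO1, chr1:241847954-241848223, plus strand: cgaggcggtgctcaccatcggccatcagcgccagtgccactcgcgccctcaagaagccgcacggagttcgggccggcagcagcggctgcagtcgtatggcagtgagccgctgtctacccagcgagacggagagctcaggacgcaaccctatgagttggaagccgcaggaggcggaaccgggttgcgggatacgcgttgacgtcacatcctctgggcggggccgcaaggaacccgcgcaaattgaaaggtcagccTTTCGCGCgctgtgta
GINS1, chr20:25407423-25407692, plus strand: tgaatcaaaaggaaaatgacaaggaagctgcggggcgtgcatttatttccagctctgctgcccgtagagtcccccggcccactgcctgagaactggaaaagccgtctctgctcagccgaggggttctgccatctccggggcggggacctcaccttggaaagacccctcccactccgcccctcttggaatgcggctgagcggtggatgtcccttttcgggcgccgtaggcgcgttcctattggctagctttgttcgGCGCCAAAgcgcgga
LIG1 and GINS2 among the higher genes each hold 1 match, and ORC1 and TIMELESS hold none. Among the lower genes, CDC7 holds 2 matches, EXO1 and GINS1 hold 1 each and RRM1 none. GINS1 and GINS2, whose products sit in the same complex and whose transcripts moved in opposite directions, thus both have the letters near their starts.

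The origin recognition complex marks where replication can begin, and ORC1 passed among its 4 subunits in the list (ORC1, ORC2, ORC3 and ORC5). ORC1, an ATPase subunit whose level changes through the cell cycle, read 311, 225 and 304 on the MALT1-labelled arrays and 129, 144 and 181 on the mock-labelled arrays. The groups did not overlap, although the arrays of each group spread widely, and ORC1 was 1.85-fold higher (log2 difference 0.88 ± 0.20 SE, adjusted p = 0.0209). The call was lost without MALT1 replicate 1, MALT1 replicate 3, mock replicate 1 or mock replicate 2 (adjusted p 0.0629 to 0.0716). ORC2, a core subunit, read 478, 457 and 456 against 430.0, 403 and 375. ORC3, another core subunit, read 859.8, 821 and 855 against 1035, 938 and 933. Neither passed, at log2 differences of 0.21 (95% interval −0.027 to 0.44) and −0.19 (95% interval −0.42 to 0.027), although the arrays of the groups did not overlap in either gene. ORC5, an ATPase subunit, read 949, 887 and 857 against 853, 854 and 839 and did not pass (0.079, 95% interval −0.13 to 0.29). A dimmer ORC5 probe set did pass as lower (−0.35 ± 0.084 SE, adjusted p = 0.0265), so its probe sets disagree.

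The 6 subunits of the MCM ring, which are assembled in equal numbers in the helicase, did not move as a unit. MCM3, MCM6 and MCM7 rose, MCM4 fell, and MCM2 and MCM5 did not pass. MCM3 read 2218, 2194 and 2016 on the MALT1-labelled arrays and 1189, 1251 and 1209 on the mock-labelled arrays. All its MALT1-labelled arrays were above all mock-labelled arrays, a 1.76-fold rise (log2 difference 0.82 ± 0.085 SE, adjusted p = 0.0016). MCM6 read 4535, 4338 and 3613 against 2359.8, 2444 and 2525, with MALT1 replicate 3 the lowest of its group and still above every mock-labelled array (0.76 ± 0.12 SE, adjusted p = 0.00599). MCM7 read 1980.1, 1816 and 2022 against 1318, 1372 and 1349 and rose by 0.53 (adjusted p = 0.00735). A second MCM7 probe set rose by a similar amount (0.47 ± 0.11 SE, adjusted p = 0.024). MCM4 went the other way, at 2152, 2206 and 2003 against 3368, 3087 and 3192, with no overlap. It fell by 0.60 on the log2 scale (SE 0.088, adjusted p = 0.00506), and its other 3 probe sets fell too, by 0.59, 0.53 and 0.96. MCM2 read 2469.5, 2641 and 2835 against 2231, 2249 and 2085. The groups did not overlap in MCM2, but the difference did not pass (0.27, 95% interval 0.034 to 0.51, adjusted p = 0.0807). MCM5 read 867, 941 and 1121 against 1011, 1016 and 881, with the groups overlapping (95% interval −0.34 to 0.35). A dimmer MCM5 probe set read 240, 201 and 198 against 185, 162 and 156. Its groups did not overlap, but it did not pass either (0.34, 95% interval 0.022 to 0.66, adjusted p = 0.0963).

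**Figure D2:**
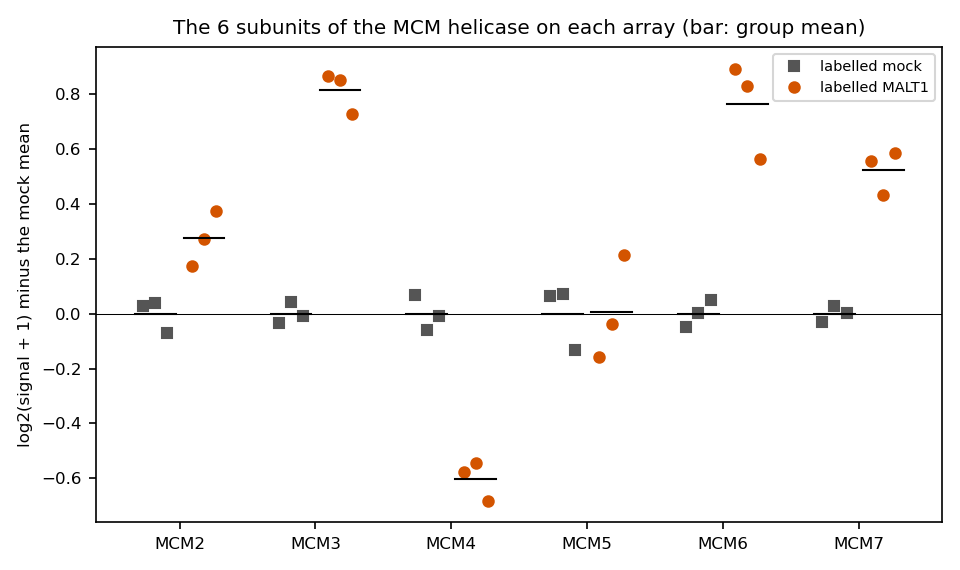
Log2(signal + 1) of the 6 MCM2-7 subunits on each array, relative to the mean of the mock-labelled arrays (squares mock, circles MALT1, bars group means, 3 arrays each). MCM3, MCM6 and MCM7 lie above 0 and MCM4 below 0 on every MALT1-labelled array, while MCM5 overlaps between the groups.

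Ratios within an array give the difference between subunits directly. The MCM3 to MCM4 ratio was higher on the MALT1-labelled arrays by 1.42 ± 0.060 SE on the log2 scale, the MCM6 to MCM4 ratio by 1.36 ± 0.087 SE and the MCM7 to MCM4 ratio by 1.13 ± 0.10 SE (n = 3 per group). In each of these ratios every MALT1-labelled array was above every mock-labelled array. The MCM3 to MCM6 ratio differed by only 0.053 ± 0.064 SE and overlapped. Over all 15 pairs of the ring, 13 had ratios that did not overlap between the groups. Across the 43 subunit pairs of 13 complexes 33 did not, and each of these has an exact permutation p of 0.1 (two-sided), the smallest that 3 arrays against 3 allow (adjusted over the 43 pairs, 0.13). The share for gene pairs in general was not computed, and since single genes above the median signal did not overlap in 74.7% of cases, nothing particular to these complexes is read from the counts.

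The loading factors CDC6 and CDT1 did not pass. CDC6, which loads the ring together with the origin recognition complex, read 891, 858 and 959.6 against 1099, 1062 and 1075. Its groups did not overlap, and the difference of −0.26 missed the threshold (adjusted p = 0.0722, 95% interval −0.48 to −0.041). CDC6 passed as lower with a pseudocount of 16 (adjusted p = 0.0489) and with median centring (adjusted p = 0.0304). It also passed with all probe sets below the median signal left out (adjusted p = 0.0147). CDT1, which brings the ring to origins, was among the dimmest of the list and overlapped between the groups (−0.073, 95% interval −0.51 to 0.36).

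Among genes of helicase activation, GINS2 rose while GINS1 and CDC7 fell. GINS2 read 3496, 3085 and 3637 on the MALT1-labelled arrays and 1927, 1891 and 1870.3 on the mock-labelled arrays. Every MALT1-labelled array was higher, a 1.79-fold rise (0.84 ± 0.10 SE, adjusted p = 0.00227). GINS1, its partner in the complex that joins CDC45 on the ring, read 4360.2, 4320.2 and 4589.7 against 6467, 6728 and 7247. Here every MALT1-labelled array was lower, a fall to a signal 1.54-fold lower (−0.62 ± 0.088 SE, adjusted p = 0.00447). The GINS2 to GINS1 ratio was higher by 1.46 ± 0.080 SE on the log2 scale. The origin-firing kinase CDC7 read 469.8, 479 and 515 against 899, 923 and 807 and was 1.79-fold lower without overlap (−0.84 ± 0.10 SE, adjusted p = 0.00221). DBF4, its activating subunit, overlapped between the groups and varied widely within them (−0.11, 95% interval −0.64 to 0.41). MCM10, which helps the loaded helicase become active, read 1068, 1018 and 939 against 908, 817 and 859 and did not pass (0.23, adjusted p = 0.136). CDC45 and the scaffold TOPBP1 overlapped between the groups, with log2 differences of −0.15 (95% interval −0.47 to 0.17) and −0.023 (95% interval −0.23 to 0.19).

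Of the polymerase and primase genes in the list, POLA2, POLD3 and POLE2 passed, all as lower, and each encodes an accessory rather than a catalytic subunit. POLA2, the regulatory subunit of the polymerase that extends primers, read 457, 472 and 456 on the MALT1-labelled arrays and 644, 658 and 638 on the mock-labelled arrays. The arrays within a group lay close together, and POLA2 fell by 0.49 on the log2 scale (SE 0.076, adjusted p = 0.00627). POLD3, an accessory subunit of the lagging-strand polymerase delta, read 706, 660.3 and 764 against 991, 1004 and 955 and fell by 0.47 (adjusted p = 0.0138). Its call was lost without MALT1 replicate 1, mock replicate 1 or mock replicate 2 (adjusted p 0.0505 to 0.0563). POLE2, an accessory subunit of the leading-strand polymerase epsilon, read 938, 973 and 1037 against 1271, 1326 and 1196 and fell by 0.36 (adjusted p = 0.0307). The POLE2 call held only when MALT1 replicate 3 was the array left out, and was lost without any of the other 5 (adjusted p 0.0514 to 0.105). The catalytic subunits POLA1, POLD1 and POLE did not pass. POLD1 read 203, 244 and 241 against 269.8, 261 and 262 without overlap (−0.21, 95% interval −0.47 to 0.061). POLA1 and POLE overlapped between the groups (0.035, 95% interval −0.23 to 0.30, and 0.29, 95% interval −0.34 to 0.92). The primase genes PRIM1 and PRIM2, whose products lay down the RNA primers, did not pass either (−0.13, 95% interval −0.33 to 0.063, and −0.14, 95% interval −0.48 to 0.20).

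The ratio of catalytic to listed accessory subunit was higher on the MALT1-labelled arrays for polymerase alpha (POLA1 to POLA2, 0.52 ± 0.085 SE on the log2 scale), without overlap. It was also higher for polymerase delta (POLD1 to POLD3, 0.27 ± 0.11 SE), without overlap. Of its accessory subunits outside the list, POLD2 fell by 0.70 (adjusted p = 0.0241) and POLD4 rose by 0.52 (adjusted p = 0.0154). Both are named after their values were seen, and their ratios to POLD1 were not computed. For polymerase epsilon (POLE to POLE2, 0.65 ± 0.31 SE) the arrays overlapped. The primase ratio PRIM1 to PRIM2 differed by 0.0052 ± 0.14 SE and overlapped.

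PCNA, the sliding clamp that holds polymerases on DNA, was lower, as were RFC2 and RFC3 of its loader, and none of these 3 calls was robust to leaving out arrays. PCNA read 5465, 4872 and 4122 on the MALT1-labelled arrays and 7242, 6682 and 6399.6 on the mock-labelled arrays. All MALT1-labelled arrays were lower, with a wide spread among them, and PCNA fell by 0.50 (SE 0.14, adjusted p = 0.0396). Its call held without MALT1 replicate 1 and was lost without any other array (adjusted p 0.0642 to 0.118). RFC3 read 2188, 2267 and 2326 against 2895, 2959 and 2846 and fell by 0.36 (adjusted p = 0.0195), with a larger fall of 0.57 on its dimmer probe set. The RFC3 call was lost without replicate 1 or 2 of either group (adjusted p 0.0631 to 0.0762). RFC2 read 1181, 1226 and 1071 against 1418, 1453 and 1501 and fell by 0.33 (adjusted p = 0.0424). The RFC2 call was lost with each array left out in turn (adjusted p 0.0693 to 0.118), with median centring (adjusted p = 0.0574) and with quantile normalization (adjusted p = 0.0626). RFC4 read 2087, 2038 and 2139 against 2500.5, 2429 and 2417 and missed the threshold (−0.23, adjusted p = 0.0741), although the groups did not overlap. The large subunit RFC1 and the small subunit RFC5 did not pass, at 0.083 (95% interval −0.11 to 0.28) and 0.11 (95% interval −0.11 to 0.33). Their ratios to RFC3 were higher on the MALT1-labelled arrays by 0.44 ± 0.019 SE and 0.47 ± 0.070 SE on the log2 scale, without overlap.

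Of RPA, the trimer that coats single-stranded DNA, 1 subunit passed. RPA2, the subunit phosphorylated under replication stress, read 1437, 1417 and 1550.3 on the MALT1-labelled arrays and 1075, 1110.0 and 1126 on the mock-labelled arrays. It was higher without overlap (0.41 ± 0.084 SE, adjusted p = 0.0155). The call was lost without MALT1 replicate 1, mock replicate 1 or mock replicate 2 (adjusted p 0.05005 to 0.0577) and with median centring (adjusted p = 0.0898). RPA1, the large DNA-binding subunit, read 3881, 3711 and 3896 against 3659, 3766 and 3859. RPA3, the small subunit, read 3687, 3781 and 3513 against 3991, 3748 and 4211. Both overlapped between the groups, with log2 differences of 0.026 (95% interval −0.17 to 0.23) and −0.12 (95% interval −0.35 to 0.11).

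LIG1, the ligase that seals Okazaki fragments, had the largest rise of the list. It read 511, 445 and 544 on the MALT1-labelled arrays and 233, 216 and 259 on the mock-labelled arrays. Every MALT1-labelled array was above every mock-labelled array, and LIG1 was 2.11-fold higher (1.08 ± 0.12 SE, adjusted p = 0.0022). FEN1, the nuclease that trims the flap before ligation, read 4789, 4484 and 5026 against 3954, 4258 and 5115. The groups overlapped, since mock replicate 3 was the highest of the 6 arrays (0.11, 95% interval −0.22 to 0.44). TIMELESS and TIPIN form a complex that protects forks when they stall. TIMELESS read 1243, 1231 and 1025 against 635, 702 and 625 and was 1.78-fold higher without overlap (0.83 ± 0.12 SE, adjusted p = 0.00448). TIPIN read 1119, 1178 and 949 against 1572, 1387 and 1286 and missed the threshold in the lower direction (−0.39, adjusted p = 0.0795, 95% interval −0.73 to −0.050). The TIMELESS to TIPIN ratio was higher by 1.22 ± 0.10 SE on the log2 scale, without overlap.

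Of the genes that supply deoxynucleotides, the subunits of ribonucleotide reductase moved in opposite directions. RRM1, its large subunit, read 4848, 4880.5 and 4445 on the MALT1-labelled arrays and 9575, 9609 and 9959 on the mock-labelled arrays. Every MALT1-labelled array was lower, and RRM1, the largest fall of the list, was 2.06-fold lower (−1.04 ± 0.084 SE, adjusted p = 0.000688). A dimmer RRM1 probe set fell by 1.35. RRM2, its small subunit, read 7846, 8012 and 8751 against 5542, 5734 and 5994. Every MALT1-labelled array was higher (0.51 ± 0.090 SE, adjusted p = 0.00945), and a second RRM2 probe set gave 0.50 ± 0.093 SE, adjusted p = 0.0117. The RRM2 to RRM1 ratio was higher by 1.55 ± 0.093 SE on the log2 scale, the largest of the 43 ratios. TYMS, thymidylate synthase, read 8229.6, 8380.2 and 8532 against 5498, 5479.7 and 5824 and rose by 0.58 (adjusted p = 0.00387). A second TYMS probe set averaged 17.8 and 4.55 in the groups, near the level of the trp controls, and averaging it in ended the call (adjusted p = 0.111). DUT, which removes dUTP, read 8452, 8134 and 7258 against 9137, 9406 and 10496 and did not pass on this probe set (−0.28, adjusted p = 0.104). A second DUT probe set was lower, at 3573, 3441 and 3838 on the MALT1-labelled arrays and 5774, 5457 and 5949.6 on the mock-labelled arrays (−0.66 ± 0.090 SE, adjusted p = 0.00388), and another showed a difference of 0.0042, so the DUT probe sets disagree. TK1, the salvage kinase for thymidine, did not pass (−0.15, 95% interval −0.36 to 0.070), although its groups did not overlap.

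**Figure D3:**
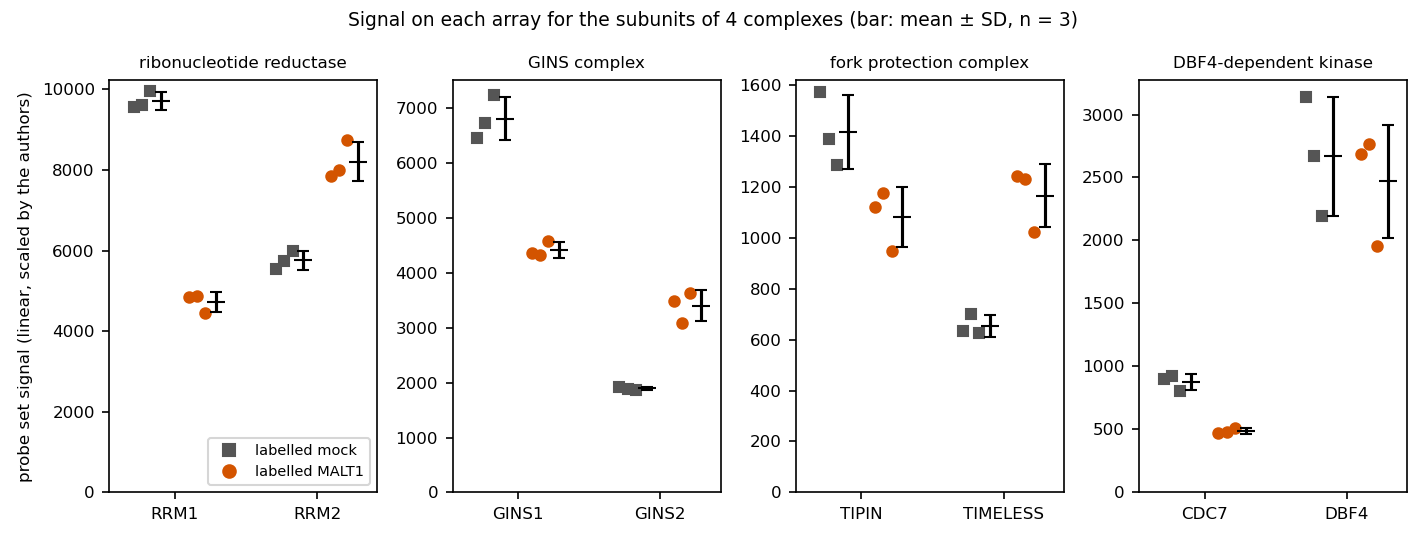
Linear probe set signal on each array for the subunits of 4 complexes (squares mock-labelled, circles MALT1-labelled, bars mean ± SD, n = 3), where only the arrays of 1 gene are compared with each other. RRM1, GINS1 and CDC7 are lower and RRM2, GINS2 and TIMELESS higher on every MALT1-labelled array, TIPIN missed the threshold and DBF4 overlaps.

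Of the 4 measured genes of the list for chromatin copying and histone supply, SLBP passed, as lower, and DNMT1, CHAF1A and CHAF1B did not. SLBP, which binds the ends of histone transcripts, read 2607, 2589 and 2264 on the MALT1-labelled arrays and 3371, 3305 and 3028 on the mock-labelled arrays. It fell by 0.38 without overlap (adjusted p = 0.0391), a call lost with each array left out in turn (adjusted p 0.0597 to 0.12). DNMT1, the maintenance DNA methyltransferase, read 1389, 1287 and 1259 against 1548, 1455 and 1457, without overlap and without passing (−0.18, 95% interval −0.40 to 0.040). The histone chaperone subunit CHAF1A read 347, 357 and 308 against 410.2, 347 and 533, and CHAF1B, its partner, read 259, 236 and 264 against 251, 257 and 256. Both overlapped between the groups, with log2 differences of −0.33 (95% interval −0.80 to 0.14) and −0.013 (95% interval −0.23 to 0.21).

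The mismatch repair genes of the list moved in opposite directions. EXO1, the exonuclease that removes the strand holding a mismatch, read 263, 279 and 229 on the MALT1-labelled arrays and 479, 425 and 470.3 on the mock-labelled arrays. It was 1.78-fold lower without overlap (−0.84 ± 0.11 SE, adjusted p = 0.00395). MSH6, a mismatch recognition protein, read 4046, 4187 and 3837 against 2749, 3280.2 and 2894 and was higher (0.44 ± 0.10 SE, adjusted p = 0.0259). A second MSH6 probe set rose further (0.80 ± 0.086 SE, adjusted p = 0.00176), and another averaged 8.93 and 5.79 in the groups, below the trp control level. The MSH6 call was lost without replicate 1 or 2 of MALT1 or replicate 1 or 3 of mock (adjusted p 0.0779 to 0.0838). It was also lost with median centring (adjusted p = 0.156) and with its probe sets averaged (adjusted p = 0.176).

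Of the 23 calls, 13 held under each of the 12 alternatives tried, 7 of them higher (MCM3, MCM6, MCM7, GINS2, LIG1, TIMELESS and RRM2) and 6 lower (MCM4, GINS1, CDC7, POLA2, RRM1 and EXO1). No called gene changed direction. With the replicate number as a block, ORC1, POLD3, POLE2, PCNA, RFC2, RFC3, RPA2, SLBP and MSH6 lost their calls (adjusted p 0.0516 to 0.128). The count of lower genes, 12, was 7 without MALT1 replicate 1, 7 without MALT1 replicate 2, 6 without mock replicate 1 and 6 without mock replicate 2. Over all probe sets the lower count, 3787, was 3062, 3117, 2950 and 2879 in the same 4 fits. The count of higher genes, 11, was 8 to 10 with an array left out, and that over all probe sets, 4130, was 3286 to 3573. The share of calls that held under all 12 alternatives was not computed over all genes. Among the 28 genes that did not pass, 21 had a 95% interval within 0.5 of 0 on either side of the log2 scale, and 15 had groups that did not overlap. Neither share was computed over all genes that did not pass, so nothing particular to the list is read from these counts. With all probe sets below the median signal left out, which leaves fewer tests to adjust for, 8 more genes passed. MCM2, MCM10 and ORC2 passed as higher and ORC3, CDC6, RFC4, TIPIN and DUT as lower (adjusted p 0.0146 to 0.047). Of 18 genes with several probe sets, 6 passed on all of them in the same direction, 6 passed on some, 6 on none, and no gene had probe sets that passed in opposite directions. ORC5, DUT and RFC5 passed only on a probe set other than the brightest, where RFC5 was higher (0.33 ± 0.086 SE, adjusted p = 0.0358).

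Other genes of replication and its control, from 6 lists written with earlier results of these data known, also went both ways. Of 83 measured out of 99, 21 were higher and 23 lower, with a median log2 difference of 0.022 and a median absolute difference of 0.52. The called share was 53.0% (25.3% higher and 27.7% lower), between 40.4% of all genes and 56.8% of genes above the median signal. By list, in the order below, the called share was 53.3%, 53.3%, 63.6%, 35.7%, 57.1% and 33.3%. Nothing particular to these genes is read from the counts. Of 15 other origin, helicase and fork genes, 2 were higher and 6 lower. ORC4 and ORC6 are the other subunits of the origin recognition complex. ORC4 rose (0.74 ± 0.093 SE, adjusted p = 0.00294), and so did GMNN, the inhibitor of CDT1 (0.58 ± 0.090 SE, adjusted p = 0.00618). ORC6 fell, and so did DTL, the adaptor that directs CDT1 to degradation (−0.88 ± 0.12 SE, adjusted p = 0.00433, and −0.54 ± 0.079 SE, adjusted p = 0.00517). Of 15 polymerase, nuclease and topoisomerase genes, 5 were higher and 3 lower. The topoisomerase TOP2B rose from 1911 ± 77.0 to 3880.4 ± 153 (mean ± SD, n = 3 each; 1.02 ± 0.084 SE, adjusted p = 0.000733), whereas TOP2A, the form tied to proliferation, fell from 5776 ± 221 to 3248 ± 266 (−0.83 ± 0.10 SE, adjusted p = 0.00249). POLD4, a small accessory subunit of polymerase delta, rose (0.52 ± 0.11 SE, adjusted p = 0.0154), opposite to POLD3, and is named here after its value was seen. The translesion polymerase gene POLI rose from 159.6 ± 18.5 to 319.6 ± 4.45 (adjusted p = 0.00195), and REV3L rose by 0.59 on the log2 scale (adjusted p = 0.0086).

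Regulators of S phase changed more than the machinery itself in absolute median difference, 0.68 against 0.29, a description with no test. Of 22 E2F and S-phase kinase regulators, 7 were higher and 7 lower. E2F6, a repressor of the E2F family, rose from 306 ± 19.3 to 1061 ± 29.3 (1.79 ± 0.089 SE, adjusted p = 0.000165). RBL1, the pocket protein p107, fell from 785 ± 137 to 238 ± 28.1 (−1.71 ± 0.17 SE, adjusted p = 0.00133). WEE1, the kinase that restrains CDK1, fell by 1.39, and TFDP1, the dimer partner of E2F proteins, by 0.96 on the log2 scale (adjusted p = 0.000519 and adjusted p = 0.000991).

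Of 14 other nucleotide synthesis genes, 1 was higher and 4 lower. DCTPP1, which breaks down dCTP and its modified forms, rose from 1708 ± 28.1 to 3703 ± 219 (1.11 ± 0.086 SE, adjusted p = 0.000595). The mitochondrial kinase TK2, the deaminase DCTD and the dNTP hydrolase SAMHD1 fell by 1.75, 1.73 and 1.33 on the log2 scale (adjusted p = 0.00027, adjusted p = 0.000955 and adjusted p = 0.00053). Of 14 chromatin assembly genes, 5 were higher and 3 lower. The de novo methyltransferase DNMT3B rose from 115 ± 5.77 to 648 ± 51.5 (2.48 ± 0.10 SE, adjusted p = 0.000101), beside a maintenance methyltransferase DNMT1 that did not pass. RBBP4, a histone-binding subunit shared with CAF-1, rose by 0.96, while NPAT, a coactivator of histone genes, and the FACT subunit SSRP1 fell by 1.42 and 0.87. Of 3 other mismatch repair genes, PMS1 rose (0.74 ± 0.090 SE, adjusted p = 0.00266), and MSH3 and MLH3 did not pass.

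Most mitotic genes fell on the same arrays on which the replication genes split. Of 25 measured, 20 were lower and 5 did not pass, and all 25 had a negative difference (median log2 difference −0.58). Their summed signal was 50115 to 52584 on the MALT1-labelled arrays and 80072 to 81762 on the mock-labelled arrays. The summed signal of the 51 replication genes was 102972 to 106626 against 107543 to 110071. The proliferation marker MKI67 and the spindle factor TPX2 fell by 1.14 and 1.15 on the log2 scale. The difference between the mitotic and replication lists was not tested, and the part of the mitotic fall in the replication results was not tested either.

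**Figure D4:**
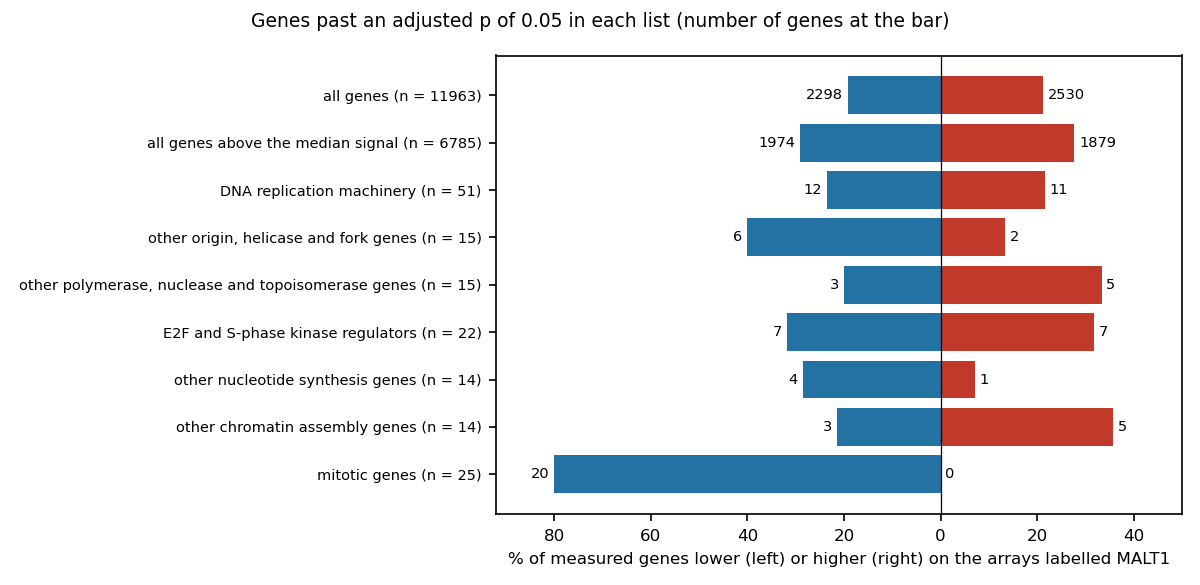
Percentage of measured genes in each list that passed an adjusted p of 0.05 as lower (blue, left) or higher (red, right) on the MALT1-labelled arrays, with the number of genes at each bar. The replication machinery (11 higher, 12 lower) lies near the shares of all genes, while the mitotic list has 20 of 25 genes lower.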

How the data were processed

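Total RNA of 6 samples was measured on 6 Affymetrix 3′ arrays, 3 per group. The intensity values deposited by the authors were linear, 1 per probe set, and their mean on every array was about 500.2 after trimming 2% of probe sets at each end. No source used here names the software, and no detection call was used. Signals up to the highest trp control on any array were called dim, a level chosen after seeing the values. That control value, 17.6, came from MALT1 replicate 3, where 25.6% of probe sets were dim, beside 31.7% to 33.3% on the other arrays. Of 22277 probe sets, 62 controls were left out. Genes were named from the 19064 probe sets with 1 symbol in the platform annotation (1043 had several and 2108 none). Log2(signal + 1) was fitted with limma 3.58.1 in R 4.3.3 (lmFit and eBayes, group as the only term) on all 22215 probe sets, with two-sided p-values adjusted by Benjamini-Hochberg. The added 1 slightly understates folds of dim genes. The fit was tested on simulated data. Ratios of subunits were compared by exact permutation tests.

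The members, roles and lists were chosen with earlier results of these data known. Named were, in each role, the 4 lowest adjusted p-values at most, the 4 largest passing differences in each direction, all MCM2 to MCM7 subunits, and at most 4 genes of each other list, by the same p-value. Probe sets whose ID ends in s_at or x_at can bind several transcripts, and probe positions were not analysed here. The number of arrays limits the precision. Labels share replicate numbers, but the deviations of same-numbered arrays correlated by 0.0586, −0.00249 and 0.0607, so the numbers were not taken as pairs. Alternatives were a pseudocount of 16, probe sets with a mean log2 signal below the median left out, median centring and quantile normalization. Further alternatives were probe sets averaged per gene, the replicate number as a block, and each array left out.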

Additional observations from a re-analysis of the deposited data

How the results depend on the processing

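The 13 calls named in the report kept direction and threshold under all 12 alternatives. With the replicate number as a block, 8 replication genes were higher and 6 lower, and all probe sets called fell from 7917 to 5808. The samples share only a number, and that fit has fewer residual degrees of freedom. Leaving out 1 array gave 8 to 10 higher and 6 to 9 lower replication genes, with fewer arrays in the fit. The list's median, −0.11, was −0.24 with median centring, −0.086 with quantile normalization, and −0.13 to −0.023 with an array left out. The cause was not tested.

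Signs turned in 11 genes, none of them called in the reported fit. With median centring ORC5 was −0.049, MCM5 −0.12, POLA1 −0.094, RFC1 −0.046, RFC5 −0.017, RPA1 −0.10 and FEN1 −0.020. Quantile normalization gave 0.029 for TOPBP1, −0.013 for RPA1 and 0.00041 for CHAF1B. Averaged probe sets gave −0.039 for ORC5. With 1 array left out, POLA1 ranged from −0.033 to 0.10, CDT1 from −0.19 to 0.041, CHAF1B from −0.044 to 0.036, MCM5 from −0.10 to 0.087, DBF4 from −0.25 to 0.046, TOPBP1 from −0.059 to 0.0098.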
